A study of Mus musculus with 9 samples.

Results

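This report follows 9 mature miRNAs tied to p53 or to the DNA damage response through mouse osteoblastic cells exposed to alpha particles. They were taken by name from the 1881 mouse miRNAs of the array design: miR-34a-5p, both arms of miR-34b and miR-34c, miR-22-3p, miR-24-3p, miR-103-3p and miR-107-3p. No measured value entered the rule, but earlier results of these data were known when they were chosen. Bone marrow cells of male C57BL/6 mice aged 8 weeks were cultured for 7 days, then kept for another 7 days in differentiation medium containing β-glycerol phosphate, ascorbic acid 2-phosphate and dexamethasone. The unexposed group (0 Gy) and the groups given 0.5 Gy or 1 Gy of alpha particles at 0.22 Gy per minute shared strain, sex, age and culture, and each had 3 arrays, called array 1, 2 and 3 after the replicate number in the titles. No genotype change was stated. Whether the 3 samples of a dose were separate animals or cultures was not given in the sources used here, nor was the interval from irradiation to RNA extraction, so a p-value here reflects only how far these samples differ, and that spread may be technical.

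A miRNA guides the Argonaute complex to messenger RNAs that pair with its seed, the bases near its 5′ end, and lowers their output. DNA breaks activate the kinase ATM and the transcription factor p53. The miR-34 genes are direct p53 targets in many cell types, and their products repress cell cycle and survival genes such as those for cyclin-dependent kinases, MET and BCL2. miR-22 has been described as p53-responsive and as a repressor of the cell cycle inhibitor p21. miR-24 has been described as a repressor of the histone variant H2AX, which marks DNA breaks. miR-107 has been described as p53-responsive, and shares its seed with miR-103. In bone, miR-34 family members have been described as restraints on osteoblast proliferation and differentiation.

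The mature sequences are shown because they set which miRNAs share targets and which could share an array probe. They come from RefSeq with the build GRCm38.p6, where 8 of the 9 names matched, all but miR-34c-5p, and run 5′ to 3′ with the seed, bases 2 to 8, in capitals.
mmu-miR-34a-5p: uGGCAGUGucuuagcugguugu
mmu-miR-34b-5p: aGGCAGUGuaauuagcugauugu
mmu-miR-34b-3p: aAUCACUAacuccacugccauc
mmu-miR-34c-3p: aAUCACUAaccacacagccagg
mmu-miR-22-3p: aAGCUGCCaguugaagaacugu
mmu-miR-24-3p: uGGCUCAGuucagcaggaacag
mmu-miR-103-3p: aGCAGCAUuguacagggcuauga
mmu-miR-107-3p: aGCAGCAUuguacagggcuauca
The seed GGCAGUG was shared by 4 mature mouse miRNAs of that table, namely miR-34a-5p, miR-34b-5p, miR-449a-5p and miR-449c-5p. As miR-34c-5p had no match, its seed was not compared, and its absence from this group shows nothing. The 3p arms of miR-34b and miR-34c shared the seed AUCACUA with each other and with no other entry, and were 77.3% identical over their 22 bases. The seed of miR-22-3p, AGCUGCC, belonged to that miRNA alone. The seed of miR-24-3p, GGCUCAG, occurred in 5 entries. miR-103-3p and miR-107-3p shared the seed GCAGCAU and differed over their 23 bases by G22C alone, counted from the 5′ end with the base of miR-103-3p first, which made them 95.7% identical. Array probes may not separate such a pair, so the signal of each is uncertain as to which of them it reports.

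In RefSeq's GRCm38.p6 annotation, the gene of miR-34a lay on chromosome 4 and those of miR-34b and miR-34c together on chromosome 9, within the spans of Hoatz and Btg4. The gene of miR-22 lay on chromosome 11 within the long noncoding RNA gene Mir22hg. miR-24-3p came from 2 genes, on chromosomes 8 and 13, the latter within the span of Aopep. miR-103-3p came from genes within Pank2 and Pank3, on chromosomes 2 and 11, and miR-107-3p from a gene within Pank1 on chromosome 19. The Pank genes encode pantothenate kinases, enzymes of coenzyme A synthesis. The table gives gene spans and not exons, so exonic and intronic positions were not read from it.

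Several arrays stood apart before any comparison. The scanner's estimate of additive error, a measure of background noise, reached 19.4 for array 1 of 0.5 Gy and 11.2 for array 1 of 1 Gy, against 1.6 to 2.83 for the other arrays. Signals were scaled so that arrays matched on probes detected everywhere, and are given in scaled intensity units. A miRNA counted as detected where at least 50% of the spots of 1 of its probes were well above background. The dimmest detected miRNA had a signal of 145 on the first of these and 67.9 on the second, against 5.22 to 12.5 elsewhere. Array 1 of 0 Gy differed in another way: 234 miRNAs were detected on it, the most of any array, and miR-494-3p alone made up 54.7% of its summed detected signal, against 2.8% to 7.59% on the others. Array slides were also unevenly filled. Slide 1 held arrays 1 and 3 of every dose, slide 2 held array 2 of 0 Gy alone, and slide 3 held array 2 of both irradiated doses, so for arrays 2 the slide and irradiation cannot be told apart.

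Of the 9 miRNAs, 5 were detected on at least 1 array, against 23.7% of all 1881. They were miR-34a-5p, miR-22-3p, miR-24-3p, miR-103-3p and miR-107-3p, and all 5 were detected on arrays 2 and 3 of both irradiated doses, as were 7.44% of all miRNAs. None of the 9 was detected on array 1 of any dose. At 0 Gy, array 2 detected miR-34a-5p and miR-24-3p only and array 3 detected all 5. The pattern of miR-34a-5p and miR-24-3p, on arrays 2 and 3 of every dose and on no array 1, was shown by 11 of 1881 miRNAs, or 0.585%. Among the 140 miRNAs detected on arrays 2 and 3 of both irradiated doses, 20.7% had no array 1 detected, the 5 among them.

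**Figure D1:**
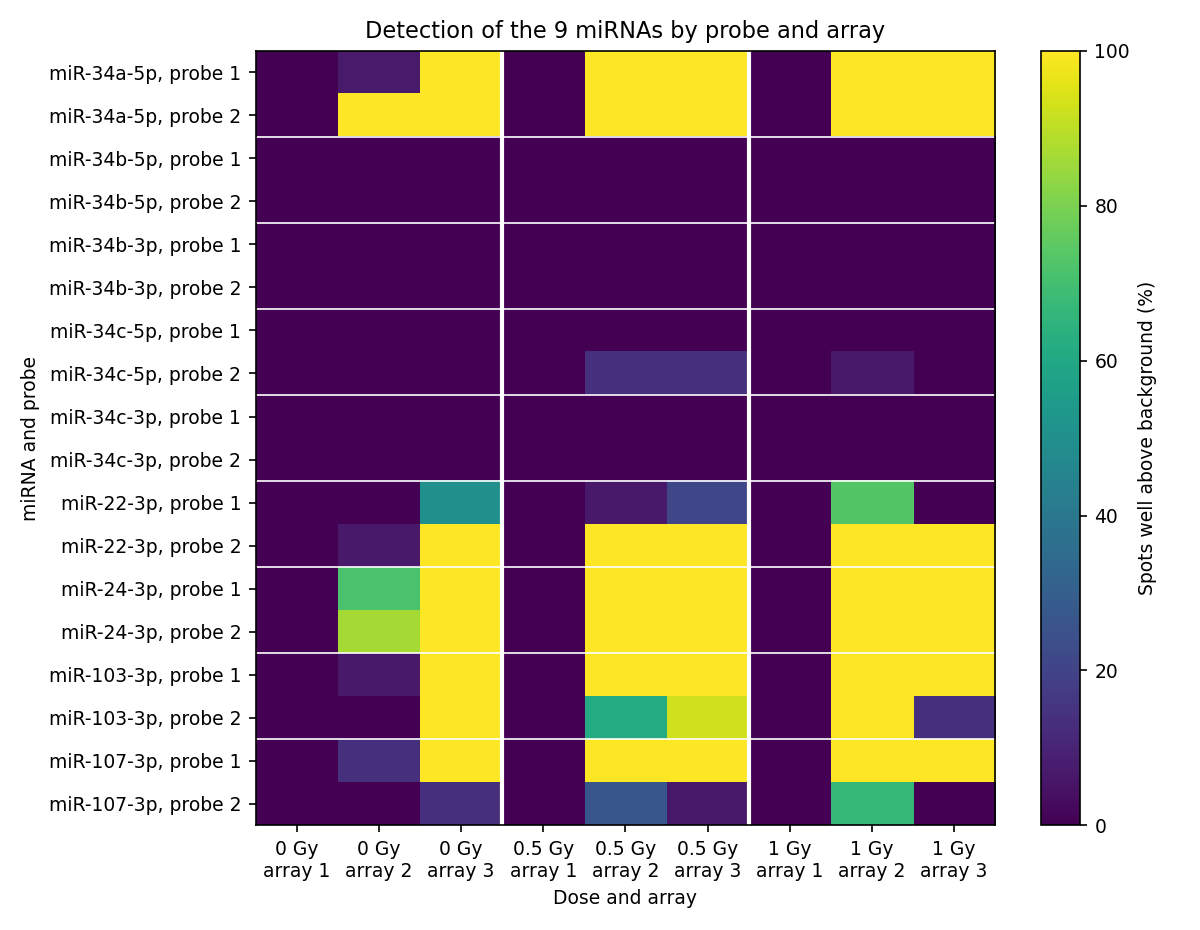
Percent of spots well above background for both probes of each of the 9 miRNAs (rows) on each array (columns, grouped by dose). Columns for array 1 are at 0% at every dose, the rows of miR-34b and both miR-34c arms stay at or below 13.3%, and miR-34a-5p and miR-24-3p each have at least 1 probe detected on arrays 2 and 3 of every dose.

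miR-34a-5p, the family member most often tied to p53, had signals of 6.0, 19.9 and 108 on the 3 arrays of 0 Gy, in array order. The arrays of 0.5 Gy gave 67.4, 75.8 and 93.8, and those of 1 Gy gave 39.5, 73.7 and 88.4. The values of array 1 were not above background at any dose. The unexposed arrays thus spanned the whole range, with the lowest and the highest detected signal of miR-34a-5p both at 0 Gy, while the 4 detected irradiated arrays lay between 73.7 and 93.8. The doses overlapped. The 2 probes for miR-34a-5p differed on array 2 of 0 Gy, where 7.14% of the spots of one and 100% of the spots of the other were above background.

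**Figure D2:**
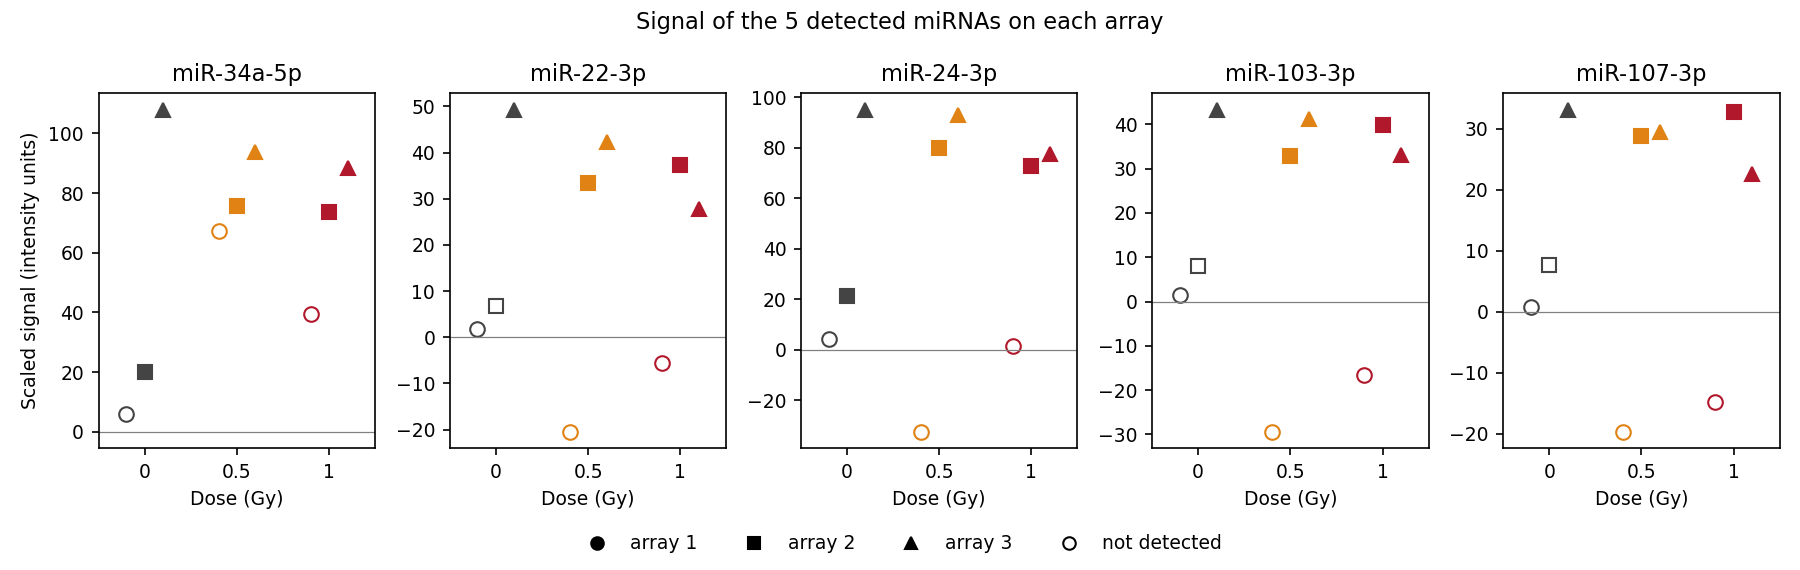
Scaled signal (intensity units) of the 5 detected miRNAs on each array, against dose in Gy. Filled symbols are detected values and open symbols are not, and the vertical axes differ between panels. In every panel array 3 of 0 Gy (108 for miR-34a-5p) is the highest point and array 2 of 0 Gy (19.9) lies well under the filled irradiated points.

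On the log2 scale, with values under the floor (a log2 of 3.52, near the dimmest detected signals) raised to it, miR-34a-5p averaged 4.86 ± 1.69 (SD, n = 3) without irradiation, 6.29 ± 0.24 after 0.5 Gy and 5.99 ± 0.61 after 1 Gy. These means include undetected values. The test over all 9 arrays took the 134 miRNAs detected on every array of at least 1 dose, and none of the 9 miRNAs studied here entered it. It called 0 of 134 miRNAs (0%) in each comparison by limma with Benjamini-Hochberg adjustment at 0.05. At an unadjusted p under 0.05 it counted 2 miRNAs for 0.5 against 0 Gy, 4 for 1 against 0 Gy, 0 for 1 against 0.5 Gy and 7 for both irradiated doses against 0 Gy. With no detection filter, 1011 miRNAs were fitted and 0 (0%) were called, with 4, 5, 0 and 8 at the unadjusted level. In that fit the difference of miR-34a-5p was 1.43 for 0.5 against 0 Gy (SE 0.80, limma adjusted p = 0.445) and 1.13 for 1 against 0 Gy (SE 0.80, limma adjusted p = 0.942). The median over all 1011 was itself 0.92 and 0.45, and the values of miR-34a-5p on the high-background arrays, 67.4 and 39.5, were not above background.

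With both high-background arrays left out, 7 arrays and 179 miRNAs remained, and 5 of the 9 entered the test. All 5 passed the filter through the irradiated doses alone, so their position above 0 Gy is partly set by the filter and supports nothing. None was called, against 0% of the 179 in every comparison. At an unadjusted p under 0.05 none of the 5 passed either, against 0 of the 179 for 0.5 against 0 Gy, 9 (5.03%) for 1 against 0 Gy, 4 (2.23%) for 1 against 0.5 Gy and 13 (7.26%) for both irradiated doses against 0 Gy. All 5 lay above 0 Gy at both doses, as did 51.4% of the 179 at 0.5 Gy, 48% at 1 Gy and 46.9% with both doses together. For miR-34a-5p the log2 difference was 1.53 for 0.5 against 0 Gy (SE 0.84, 95% interval -0.37 to 3.44, limma adjusted p = 0.828). For 1 against 0 Gy it was 1.47 (SE 0.84, 95% interval -0.44 to 3.38, limma adjusted p = 0.59). Both doses together gave 1.5 (SE 0.70, 95% interval -0.09 to 3.10, limma adjusted p = 0.45). The intervals hold no change and increases of more than 3 on the log2 scale alike, so neither an increase nor its absence was shown. Arrays 1 and 2 of 0 Gy set the size of these values: when array 1 of every dose was left out, which leaves 2 arrays per dose, they were 0.86, 0.80 and 0.83, and 0 of 180 miRNAs (0%) were called.

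**Figure D3:**
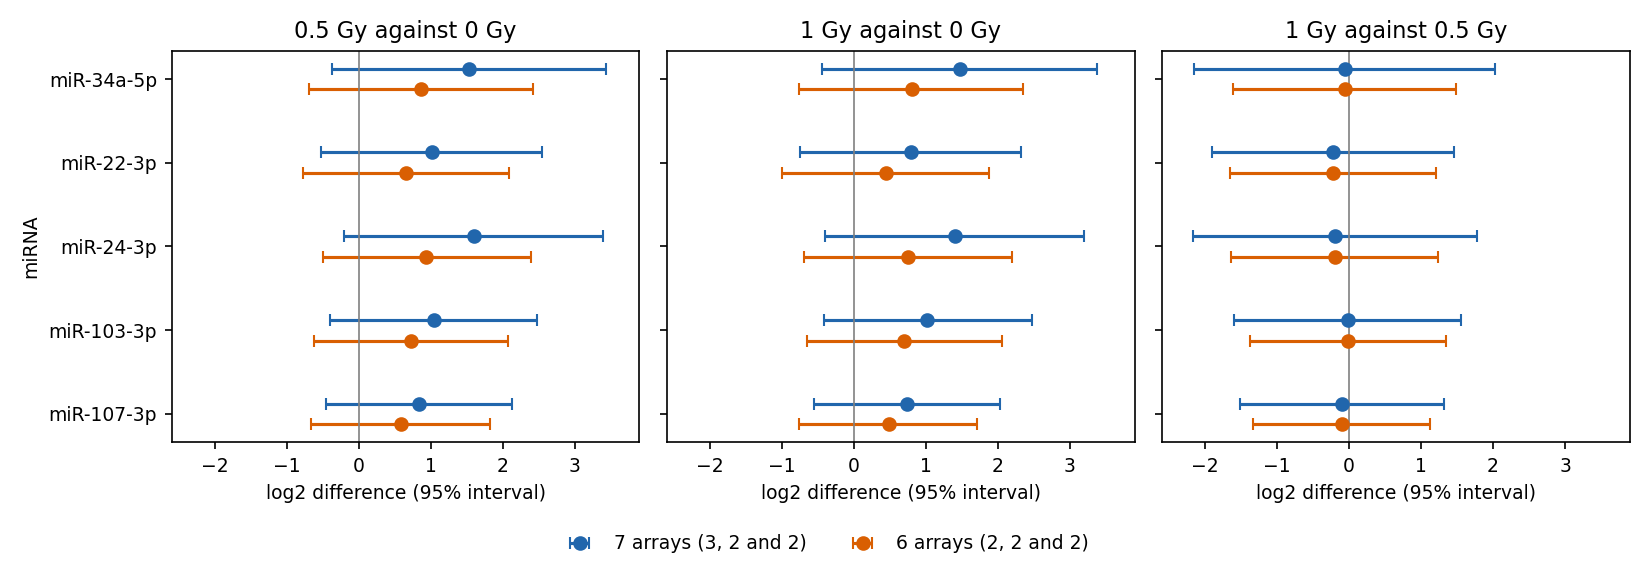
Log2 difference with 95% interval (horizontal axis) for the 5 detected miRNAs in each comparison of doses, from 7 arrays without the high-background arrays (blue) and from 6 arrays without array 1 of every dose (orange). All intervals cross 0. Those against 0 Gy are centred above it, as for miR-34a-5p at 1.53 and 0.86, and those between the irradiated doses near it.

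The comparison within a slide ran differently. Arrays 3 of all doses shared slide 1, and there miR-34a-5p had its highest signal without irradiation: 108, 93.8 and 88.4 at 0, 0.5 and 1 Gy. Array 3 of 0 Gy exceeded all 4 detected irradiated arrays for 5 of the 5 detected miRNAs, as for 20.7% of the 140 miRNAs detected on those arrays. Without scaling it did so for 3 of 5, since miR-103-3p and miR-107-3p were then higher on array 2 of 1 Gy. Array 3 signals fell in order of dose for 5 of 5, against 32.9% of the 140, and without scaling for 4 of 5, against 22.1%. The exception was miR-34a-5p, with unscaled signals of 100, 86.0 and 95. The fit within slide 1 gave miR-34a-5p differences of 1.18 and 0.75 for 0.5 and 1 Gy against 0 Gy, because it also takes the arrays 1, where its signal was not above background. Arrays 2 did not repeat this order, as their lowest signal of each of the 5 was at 0 Gy.

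The rest of the miR-34 family was not detected. miR-34b-5p, which has the seed of miR-34a-5p, reached at most 6.01 units, on array 3 of 0 Gy. miR-34c-5p, the other product of the shared miR-34b and miR-34c transcript with a described role in p53 responses, reached at most 8.50, also on array 3 of 0 Gy. On arrays 2 and 3 it measured 1.25 and 8.50 without irradiation, 6.15 and 8.17 after 0.5 Gy, and 6.44 and 7.09 after 1 Gy, all under the floor. One of its probes had 13.3% of spots above background on both of these 0.5 Gy arrays and 6.67% on array 2 of 1 Gy, the only such spots among the 8 probes for the miR-34b and miR-34c arms. The scanner software's own gene mark counted miR-34c-5p as detected on 2 arrays, so its call depends on the criterion. By that mark miR-22-3p and miR-107-3p were detected on 6 arrays rather than 5. miR-34c-3p reached at most 2.70.

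miR-34b-3p, the opposite arm of the miR-34b hairpin, had its highest signals on the high-background arrays. It measured 169 on the noisier of them, at 0.5 Gy, and 67.8 on the other, at 1 Gy, and 0.486 to 6.08 on the other arrays. No spot of its probes was well above background on any array. It nevertheless exceeded the floor on those 2 arrays and so entered the fit without a filter. No fold is given for any miR-34b or miR-34c arm. The scanner's gene mark counted miR-34b-3p as detected on 1 array. By the criterion used here all 4 arms were below detection, which does not show that they are absent.

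**Figure D4:**
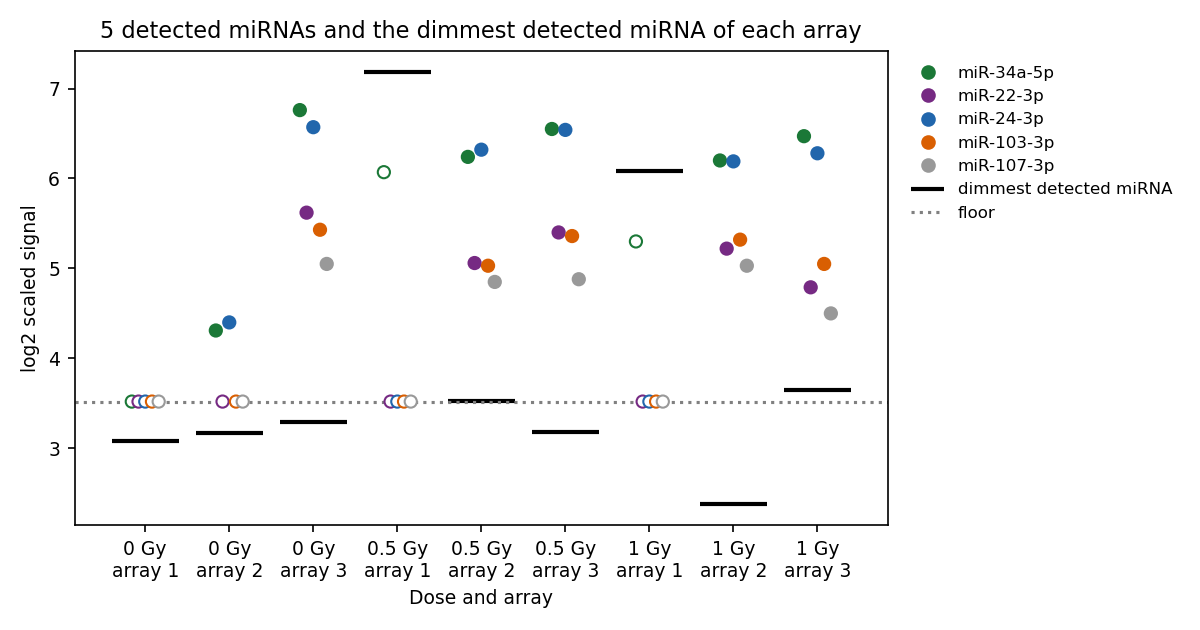
Log2 scaled signal of the 5 detected miRNAs on each array (filled where detected, open where not), with the dimmest detected miRNA of that array as a black bar and the floor as a dotted line. On the high-background arrays the bars (145 and 67.9 units before the log) stand above every plotted point of those arrays, while on the other arrays the filled points stand above the bars.

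The highest detected signal of any of the 9 miRNAs was 108, under the 145 of the dimmest detected miRNA on array 1 of 0.5 Gy. On array 1 of 1 Gy, 67.9 likewise exceeded the best signal of miR-22-3p, miR-103-3p and miR-107-3p on any array (49.3, 43.3 and 33.1), and was under that of miR-34a-5p and miR-24-3p. On array 1 of 0 Gy that value was 8.47, similar to the arrays that detected these miRNAs, and there the 9 measured at most 6.01. That array was scaled on a 75th percentile of 1460 units against 618 to 815 on the others, which lowers its scaled values. Before scaling miR-34a-5p measured 11.6 there, still under the 18.2 of array 2 and 100 of array 3 of the same dose.

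miR-24-3p, the described repressor of H2AX, followed miR-34a-5p closely. Its signals were 4.17, 21.1 and 95.1 without irradiation, -32.6, 79.8 and 93.1 after 0.5 Gy, and 1.30, 72.8 and 77.5 after 1 Gy. The first of each series, array 1, was not detected, and again array 2 of 0 Gy was the low detected value and array 3 of 0 Gy the high one. Both of its probes were detected on the same 6 arrays. Group means over all arrays were 4.83 ± 1.57, 5.46 ± 1.68 and 5.33 ± 1.57 (log2, SD, n = 3), and the differences between these means were smaller than the SDs. Each group holds an undetected array 1 raised to the floor, so these SDs do not measure the spread of detected signals. Over the 7 arrays miR-24-3p differed by 1.60 for 0.5 against 0 Gy (SE 0.80, 95% interval -0.20 to 3.40, limma adjusted p = 0.828) and by 1.40 for 1 against 0 Gy (SE 0.80, 95% interval -0.40 to 3.20, limma adjusted p = 0.59). Within slide 1, over 4 irradiated and 2 unexposed arrays, the differences without a filter were -0.02 and -0.15, the other direction. Every array 1 was at the floor there, so array 3 of each dose alone set these differences.

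miR-24 is transcribed with miR-23 and miR-27 from a pair of clusters. The cluster mates miR-23a-3p and miR-23b-3p were each detected on 6 arrays, miR-27b-3p on 5 and miR-27a-3p on 3. Over the 7 arrays miR-23a-3p differed by 1.78 and 1.80 for 0.5 and 1 Gy against 0 Gy, miR-23b-3p by 1.73 and 1.81, and miR-27b-3p by 0.49 and 0.51. Standard errors ran from 0.49 to 0.85, and every limma adjusted p was 0.59 or higher. For miR-23b-3p the unadjusted limma p for 1 against 0 Gy was 0.0456, which did not pass the adjustment. miR-23a-3p, miR-23b-3p and miR-27b-3p passed the filter through the irradiated doses alone, so their position above 0 Gy supports nothing.

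miR-22-3p was detected on 5 arrays. It measured 1.67, 6.70 and 49.3 without irradiation, -20.5, 33.3 and 42.2 after 0.5 Gy, and -5.58, 37.2 and 27.7 after 1 Gy, with detected values on array 3 of 0 Gy and on arrays 2 and 3 of the irradiated doses. The single detected unexposed array was thus above the 4 detected irradiated ones. Its probes disagreed: one was above background on 100% of spots on all 5 arrays, the other on 0% to 73.3%. Group means were 4.22 ± 1.21, 4.66 ± 1.00 and 4.51 ± 0.88 (log2, SD, n = 3), again with undetected values raised to the floor in each group. Over the 7 arrays the difference was 1.01 for 0.5 against 0 Gy (SE 0.68, 95% interval -0.52 to 2.54, limma adjusted p = 0.828) and 0.79 for 1 against 0 Gy (SE 0.68, 95% interval -0.75 to 2.32, limma adjusted p = 0.601). Within slide 1 both turned negative, at -0.11 and -0.41, set by array 3 of each dose alone, as every array 1 was at the floor.

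miR-103-3p and miR-107-3p, the pair with a shared seed, had like profiles. miR-103-3p measured 1.37, 7.91 and 43.3 without irradiation, -29.4, 32.8 and 41.2 after 0.5 Gy, and -16.5, 39.8 and 33.0 after 1 Gy. miR-107-3p measured 0.756, 7.59 and 33.1 without irradiation, -19.7, 28.8 and 29.4 after 0.5 Gy, and -14.8, 32.7 and 22.6 after 1 Gy. For both, array 2 of 0 Gy and every array 1 were not detected, and array 3 of 0 Gy was the highest. Their probes differed. The weaker probe of miR-107-3p was detected on array 2 of 1 Gy alone, with 66.7% of spots above background. The weaker probe of miR-103-3p fell to 13.3% on array 3 of 1 Gy. As their sequences differ at a single base, they may not be independent observations, which was not tested. Nor need the other members be, as every pair of the 5 detected miRNAs had a Pearson r of 0.94 to 0.997 over the 7 arrays. Counts out of these 5 therefore need not stand for separate observations. The differences over 7 arrays were 1.04 and 1.02 for miR-103-3p (SE 0.64 each, limma adjusted p = 0.828 and 0.59) and 0.84 and 0.73 for miR-107-3p (SE 0.57 each, limma adjusted p = 0.828 and 0.59), for 0.5 and 1 Gy against 0 Gy. Within slide 1 they were -0.04 and -0.19 for miR-103-3p, and -0.09 and -0.28 for miR-107-3p. These too were set by array 3 of each dose alone, as every array 1 was at the floor.

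No difference between 0.5 and 1 Gy passed the test for the 5 detected miRNAs, and its size depended on the scaling. Over the 7 arrays the differences were -0.06 for miR-34a-5p, -0.22 for miR-22-3p, -0.20 for miR-24-3p, -0.02 for miR-103-3p and -0.10 for miR-107-3p, with a limma adjusted p of 0.999 each. Over all 179 miRNAs the median was -0.09, and 38.5% were higher at 1 Gy. Without scaling, all 5 differences were positive on these arrays, from 0.06 to 0.26, where the median of all was 0.19. Scaled on all probes they ran from -0.85 to -0.65, where the median of all was -0.69. Arrays of the same number deviated together at 0.5 and 1 Gy, and the part of background and slide in this was not tested. A fit of these doses alone, with this pairing as a block and without array 1, gave differences of the same size. Its standard error was 0.44 for each of the 5, so it does not measure their own spread. The same arrays without the block gave 0.39 to 0.40, so the block did not lower it. Over the 7 arrays, which include 0 Gy, standard errors were 0.63 to 0.92. In the blocked fit the interval that reached furthest from 0 was that of miR-22-3p, -1.08 to 0.64. In that blocked fit 6 of 173 miRNAs were called and none of the 5 was among them, with limma adjusted p from 0.98 to 0.989.

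Other miRNAs of the pathway were counted from lists, with their differences over the same 7 arrays. The lists overlap each other, and miR-125b-5p and miR-214-3p are also among the stromal markers that follow. A list of other arms, seed relatives and cluster mates also held miR-15a-5p and miR-16-5p, which were not among the entries sharing a seed above. Of its 16 miRNAs on the array, 5 were detected, 4 entered the test, miR-16-5p among them, and 0 were called. Their medians were 1.11 and 1.16 for 0.5 and 1 Gy against 0 Gy. All 4 passed the filter through the irradiated doses alone, so these medians support nothing. Neither miR-449a-5p nor miR-449c-5p, the seed relatives of miR-34a-5p, was among those detected. Of 11 other miRNAs reported as induced or processed under p53, 3 entered: miR-29a-3p differed by 1.39 and 1.56 (SE 0.84), miR-16-5p by 0.36 and 0.27 (SE 0.50) and miR-149-3p by -0.53 and -0.62 (SE 0.49) for 0.5 and 1 Gy against 0 Gy. None was called, and the list medians were 0.36 and 0.27. miR-29a-3p and miR-16-5p passed the filter through the irradiated doses alone, so their position above 0 Gy is partly set by the filter.

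Of 6 miRNAs reported to act on p53 itself, 4 entered and 0 were called, with medians of 1.55 and 1.37. The brightest were miR-125b-5p, which has been described as a repressor of the p53 messenger RNA, at 1.80 and 1.91 (SE 0.92), and miR-214-3p, at 1.54 and 1.28 (SE 0.86). miR-125a-5p followed at 1.55 and 1.46 (SE 0.79). Of 16 miRNAs reported to target other damage response and repair genes, miR-21a-5p alone was detected, at 0.96 and 1.20 (SE 0.60), and it was not called. It passed the filter through the irradiated doses alone, as did miR-30d-5p of the list before, so their position above 0 Gy is partly set by the filter. The medians over all 179 tested miRNAs were 0.03 and -0.02.

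Stromal and osteoblast lineage markers moved with the 5 detected p53 and DNA damage miRNAs, as did the detected myeloid and lymphoid markers given after them. Of 7 such markers 4 were detected, namely miR-125b-5p, miR-214-3p, miR-199a-3p and miR-199a-5p, while miR-143-3p, miR-145a-5p and miR-100-5p were not detected on any array. Their summed signal was 89.6, 315 and 1170 on the 3 unexposed arrays, 641, 1040 and 1120 after 0.5 Gy, and 576, 1000 and 1130 after 1 Gy. The sums of 641 and 576 are from the high-background arrays, which detected 1 and 2 of the markers. The summed signal was low on arrays 1 and 2 of 0 Gy and highest on array 3 of 0 Gy, as were the 5 detected miRNAs. Of the single markers, miR-214-3p and miR-199a-5p had their highest detected signal on array 3 of 0 Gy. miR-125b-5p was higher on array 3 of 1 Gy (649 against 624). miR-199a-3p was higher on array 2 of 0.5 Gy (130 against 128). Over the 7 arrays 4 of 4 markers were above 0 Gy, as were 51.4% of the 179 tested at 0.5 Gy and 48% at 1 Gy. Their medians were 1.67 and 1.5 for 0.5 and 1 Gy against 0 Gy, and none was called. miR-199a-3p and miR-199a-5p passed the filter through the irradiated doses alone, so their position above 0 Gy is partly set by the filter. In such bulk RNA, fewer cells of a type and less RNA per cell cannot be told apart, and the part of this shift in the results above was not tested.

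**Figure D5:**
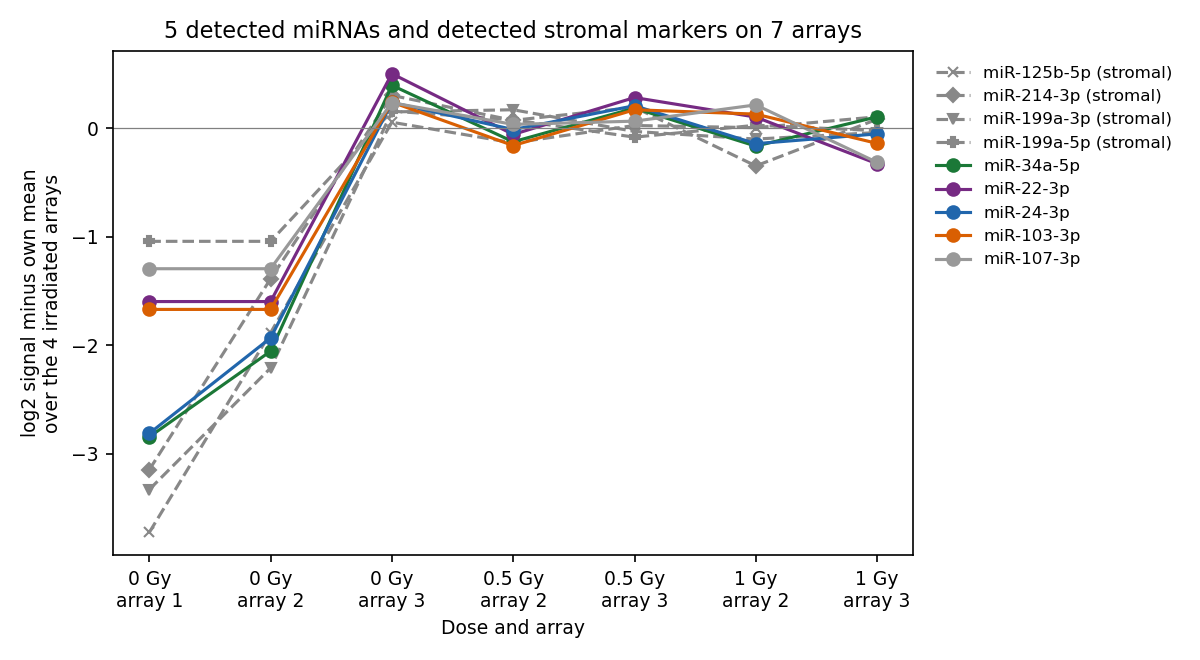
Log2 signal on 7 arrays for the 5 detected miRNAs (solid lines) and the 4 detected stromal markers (dashed grey lines), each minus its own mean over the 4 irradiated arrays shown. Both sets lie below 0 on arrays 1 and 2 of 0 Gy, where the marker sum was 89.6 and 315, and near 0 or above on the other arrays, where it was 1000 to 1170; flat segments between arrays 1 and 2 of 0 Gy are values at the floor.

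Of 3 myeloid markers, miR-223-3p alone was detected, on 5 arrays, and both arms of miR-142a were not. The myeloid sum was 3.21, 9.75 and 44.6 on arrays 1, 2 and 3 of 0 Gy. Without the high-background arrays it was 29.9 and 38.4 after 0.5 Gy, and 35.4 and 34.7 after 1 Gy. Of 2 lymphoid markers, miR-181a-5p was detected on all 9 arrays and miR-150-5p on none. Their sum was 85.4, 67.7 and 199 on arrays 1, 2 and 3 of 0 Gy. Without the high-background arrays it was 164 and 204 after 0.5 Gy, and 205 and 148 after 1 Gy. The high-background arrays gave 364 and 283, of which 168 and 72.9 were undetected signal of miR-150-5p. The myeloid and lymphoid sums were thus also low on arrays 1 and 2 of 0 Gy, so this was not particular to the stromal markers. None of 3 erythroid and 2 endothelial markers was detected. The part of all these markers in the results was likewise not tested.

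The profiles most like those of the 5 detected miRNAs were found over the same 7 arrays by Pearson's r of log2 signal, as a description. The 7 arrays share the scaling and fall into low arrays (1 and 2 of 0 Gy) and high ones. For miR-34a-5p the closest were miR-24-3p (r = 0.997), let-7b-5p (0.995) and miR-125a-5p (0.994), which became 0.866, 0.953 and 0.937 without the 2 most distant arrays. For miR-24-3p they were miR-125a-5p (0.997), miR-34a-5p (0.997) and miR-199a-3p (0.994), the last of which dropped to 0.44. For miR-22-3p they were miR-26a-5p (0.989), miR-103-3p (0.988) and miR-30a-5p (0.987). For miR-103-3p they were miR-26a-5p (0.999), let-7g-5p (0.997) and miR-223-3p (0.995). For miR-107-3p they were miR-27b-3p (0.996), miR-22-3p (0.987) and miR-103-3p (0.984), which became 0.946, 0.838 and 0.755 without the 2 most distant arrays. The median r over all tested miRNAs lay between -0.08 and 0.031.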

How the data were processed

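The 9 deposited scanner files give intensity per spot for one-colour Agilent mouse miRNA arrays. Per the file headers, Feature Extraction 11.5.1.1 detrended the deposited processed intensity and subtracted background, with no normalization across arrays. Marks of 0 or 1 for detection, outliers and saturation were also taken from the deposited columns, and no spot was saturated. A series table was not used here, because its 9 columns match no title.

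Spots marked non-uniform or outlying were dropped and the rest averaged per probe, with 2 probes for each of the 9 miRNAs. Scaling matched arrays on the 75th percentile of the 45 probes with detection on every array. Scaled probes of a miRNA were summed, a floor at the 1st percentile of detected values (log2 3.52) was set, and log2 was taken. Values at the floor have no order. limma 3.58.1 in R 4.3.3 (lmFit and eBayes, two-sided, Benjamini-Hochberg adjustment, threshold 0.05) tested miRNAs with detection on each array of 1 or more doses, and was first tested on simulated data. Since none of the 9 entered, the planned fits without a filter and without the high-background arrays give their differences. The fit without array 1 of every dose was added after seeing the data, and likeness was taken over 7 arrays for the same reason. The number of arrays limits the precision. Other scalings, background correction, floors, probe summaries, detection calls, blocks and left-out arrays were tried.

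Same-numbered arrays of 0.5 and 1 Gy deviated from their group means together (r = 0.84, 0.75 and 0.59). Those of 0 Gy did not (r from -0.13 to 0.16). The pairing of 0.5 and 1 Gy comes from these values. The means of both irradiated doses include a high-background array, array 1. Deviations from a group mean sum to 0, so one shared by arrays 1 is passed on, with opposite sign, to the other arrays. The r values of the pairing are therefore not separate observations. Arrays 2 of both irradiated doses also had a slide to themselves. The part of background and slide in the pairing was not tested. All 9 miRNAs are named throughout, with the 2 to 4 brightest detected miRNAs of each list. The members and lists were chosen with earlier results of these data known.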

Additional observations from a re-analysis of the deposited data

How the results depend on the processing

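In the test over all miRNAs the count called was 0 for each of the 4 comparisons under every alternative run but these 2, both chosen after seeing the data: for 1 against 0.5 Gy, the replicate block over only the groups compared called 3 of 40 miRNAs (miR-3473a, miR-3473b and miR-7005-5p), and the same without array 1 called 6 of 173. Neither held any of the 9 miRNAs studied here, and with no block the latter fit called 0. The replicate block over all 9 arrays called 0 in each comparison, and changed no other call.

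The differences of miR-34a-5p against 0 Gy kept their sign under all alternatives, from 0.33 to 2.37 for 0.5 Gy and from 0.18 to 2.07 for 1 Gy. No alternative left out both arrays 1 and 2 of 0 Gy, the low ones, so the kept sign does not show an increase. Alternatives that kept the high-background arrays also took values there that were not above background. Leaving out array 1 of 0 Gy gave 0.75 and 0.46, and leaving out array 3 of 0 Gy gave 2.37 and 2.07. Quantile normalization over 9 arrays gave the 0.33, and the cause was not tested. With slide as a block miR-34a-5p had 1.11 and 0.81, while miR-22-3p (-0.19 and -0.34), miR-24-3p (-0.02 and -0.15), miR-103-3p (-0.11 and -0.12) and miR-107-3p (-0.15 and -0.22) turned negative. Only slide 1 holds both unexposed and irradiated arrays, and every array 1 of the miRNAs that turned negative was at the floor. Without array 1 of 0 Gy, miR-34a-5p and miR-24-3p passed the detection filter through 0 Gy (147 miRNAs tested). Neither was called, with limma adjusted p of 0.891 and 0.837 for miR-34a-5p and 0.985 and 0.967 for miR-24-3p, which turned to -0.03 and -0.16. miR-22-3p, which did not enter that test, turned to -0.06 for 1 Gy. On the 7 arrays, scaling on all probes gave 1.68, 1.64 and 1.45 for miR-22-3p, miR-103-3p and miR-107-3p at 0.5 Gy, where it moved the median of all miRNAs to 0.48. In that setting miR-24-3p gave 2.02, with an unadjusted limma p of 0.0435, as 17 of 179 miRNAs were under 0.05. It was not called (limma adjusted p = 0.482), and its position above 0 Gy is partly set by the filter. The planned normexp correction was run on median spot signals. "Only the groups compared" was not applicable to the comparison of both irradiated doses with 0 Gy. Signal over background limits every value of array 1 at 0.5 and 1 Gy.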
